A study of Homo sapiens with 208 samples.

Results

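CALB1, SLCO1B3, AADAT, SUSD2, SYNPO2L and KCNS1 are 6 genes that lay at opposite ends of the comparison between gefitinib-sensitive PC9 cells and gefitinib-resistant PC9M2 cells. They were chosen by their array signals, which differed widely between the lines, 3 of them being higher in PC9M2 cells and 3 lower, out of 16961 genes with a probe. The difference between the lines is therefore given as a description, without a test. Each gene was read by 1 probe, found through the transcript that the array design assigns to it, namely A_23_P43197 for CALB1, A_23_P105475 for SLCO1B3, A_23_P253484 for AADAT, A_23_P314101 for SUSD2, A_23_P355517 for SYNPO2L and A_23_P321846 for KCNS1. All 6 passed the filter on dim genes, which kept the 13261 genes that the scanner software marked well above background on 13 or more of the 26 arrays in any 1 course.

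PC9 is a human lung adenocarcinoma line whose EGF receptor carries an activating deletion in the kinase domain, and PC9M2 (PC9GRM2 in the labels) is a single resistant line obtained from PC9 cells by long culture with the EGF receptor kinase inhibitor gefitinib. Cells of both lines were starved for 48 h and received no treatment, 100 ng/ml EGF, 0.5 µM gefitinib, or EGF and gefitinib together. RNA was taken at 0, 0.5 and 1 h and then hourly to 24 h, and each of the 26 time points of the 8 courses was measured on 1 one-colour array. There were no replicate arrays, so time points of matched courses were compared with each other. Neighbouring time points resemble each other, and p-values measure only the spread over time points of a single culture series.

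The genes have unrelated known roles. CALB1 encodes calbindin-D28k, a calcium-binding EF-hand protein known from neurons and the distal kidney tubule. SLCO1B3 encodes OATP1B3, an uptake transporter for bile acids and drugs in the liver cell membrane that is also known from several carcinomas. AADAT encodes a mitochondrial aminotransferase that turns kynurenine into kynurenic acid and acts in lysine breakdown. SUSD2 is a membrane protein with a sushi domain, SYNPO2L is an actin-associated protein of the striated muscle Z-disc, and KCNS1 is a modifier subunit of voltage-gated potassium channels that does not conduct alone.

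In every array 24755 to 36332 features were well above background, with medians of 30113 in PC9 and 30287.5 in PC9M2. All 8 epithelial markers examined exceeded background clearly on 52 or more of the arrays of each line, and the summed epithelial signal was 262069 to 554548 in PC9 and 323866 to 427381 in PC9M2. None of 5 fibroblast markers with a probe reached this, and 2 of 16 hepatocyte markers did in each line. Of the lung lineage markers 4 of 7 reached it, of the leukocyte markers 4 of 6 and of the endothelial markers 2 of 6, in both lines. Striated muscle markers reached it in 8 of 14 genes in both lines, while neuronal markers did so in 3 of 12 genes in PC9 and in 2 in PC9M2. The part of these markers in the results was not tested. In a culture of 1 line, fewer cells carrying a transcript and less transcript per cell cannot be told apart. The lines shared 0 slides and 0 scan days, and the highest value that the scanner could give was 65525 to 65526 on the PC9 arrays and 778994 to 779239 on the PC9M2 arrays, so line and scan period cannot be told apart. The 4 treatments of 1 line and 1 time point shared a slide, and no spot of the 6 genes was saturated. At 0.5 h the PC9M2 arrays labelled EGF and EGF and gefitinib each resembled the neighbouring time points of the other course (r = 0.797 and 0.813) more than their own (r = 0.549 and 0.555), the only 2 of 192 arrays whose best match had the other gefitinib label. Without this time point SLCO1B3, AADAT, CALB1 and SUSD2 kept every call given below for gefitinib, for EGF and for the interaction. The spline tests over time were not run without it.

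CALB1 was higher in PC9M2 cells and was well above background on all 104 arrays of each line. In PC9 cells its normalised log2 signal ran from 7.39 to 8.74 without treatment (median 8.13), from 7.59 to 9.37 with EGF (median 8.50), from 6.69 to 8.11 with gefitinib (median 7.46) and from 6.21 to 8.11 with both (median 7.49). In PC9M2 cells the signal ran from 12.18 to 13.96 (median 12.60), 12.17 to 13.38 (median 12.71), 11.54 to 13.02 (median 12.24) and 11.25 to 13.17 (median 12.09) in the same order. The lowest PC9M2 array thus lay above the highest PC9 array, whatever the treatment. The difference between the lines on the log2 scale was 4.50 ± 0.57 (SD, n = 26 time points) without treatment, 4.10 ± 0.43 with EGF, 4.73 ± 0.43 with gefitinib and 4.66 ± 0.47 with both, or 17.2-fold to 26.5-fold.

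SLCO1B3 was measured on all 104 PC9M2 arrays but well above background on only 62 of 104 PC9 arrays. In PC9 cells the log2 signal was 4.43 to 6.69 without treatment (median 5.60, well above background on 22 of 26 arrays), 5.48 to 6.97 with EGF (median 5.85, 25 arrays), 2.00 to 5.59 with gefitinib (median 2.64, 7 arrays) and 1.81 to 5.58 with both (median 3.06, 8 arrays). In PC9M2 cells it was 8.36 to 10.24 (median 9.34), 8.41 to 10.52 (median 9.71), 6.62 to 8.75 (median 7.68) and 6.29 to 8.69 (median 7.66). Within each treatment the PC9M2 array was the higher one at all 26 time points, although the lowest gefitinib-treated PC9M2 arrays overlapped the highest EGF-treated PC9 arrays. The difference between the lines was 3.76 ± 0.73 without treatment, 3.56 ± 0.59 with EGF, 4.45 ± 0.90 with gefitinib and 4.19 ± 0.87 with both. With gefitinib these differences set measured signals in PC9M2 cells against mostly unmeasured ones in PC9 cells.

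The neighbouring gene SLCO1B1, which encodes the related liver transporter OATP1B1, was also higher in PC9M2 cells, and the sequences before the start sites of both genes are shown because of that resemblance. The sequences are the 250 bases before the RefSeq start site in GRCh38.p14, at chr12:20810455-20810704 on the plus strand for SLCO1B3 and chr12:21130944-21131193 on the plus strand for SLCO1B1, with the longest run of letters that both windows share in capitals.
SLCO1B3: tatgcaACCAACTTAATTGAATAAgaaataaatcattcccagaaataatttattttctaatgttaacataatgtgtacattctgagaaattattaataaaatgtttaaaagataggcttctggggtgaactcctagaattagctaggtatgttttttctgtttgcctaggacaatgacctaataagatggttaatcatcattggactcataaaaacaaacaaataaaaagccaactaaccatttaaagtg
SLCO1B1: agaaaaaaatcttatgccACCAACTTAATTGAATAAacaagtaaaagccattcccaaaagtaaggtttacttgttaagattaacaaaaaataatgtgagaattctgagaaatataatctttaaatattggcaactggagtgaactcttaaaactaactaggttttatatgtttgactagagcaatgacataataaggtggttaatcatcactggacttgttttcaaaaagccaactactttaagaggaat
The shared run of 18 bases began 244 bases before the start of SLCO1B3 and 232 bases before that of SLCO1B1. On either strand it was found in 2 of 35114 such windows of human genes, which are these windows themselves. The run was picked from these windows, so this count is a description and no finding, and a role of the run was not tested.

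AADAT had the smallest mean difference between the lines. In PC9 cells its log2 signal was 4.68 to 6.55 without treatment (median 5.72, well above background on 23 of 26 arrays), 4.87 to 7.42 with EGF (median 5.65, 26 arrays), 2.10 to 5.35 with gefitinib (median 4.34, 12 arrays) and 3.01 to 5.44 with both (median 4.67, 19 arrays). All 104 PC9M2 arrays were well above background, at 6.94 to 9.72 (median 7.72), 7.11 to 8.43 (median 7.75), 6.47 to 8.04 (median 7.51) and 6.04 to 7.84 (median 7.34). The highest of these values, 9.72 in untreated PC9M2 cells at 11 h, stood apart from the rest of its course. The line difference was 2.08 ± 0.82 without treatment, 1.91 ± 0.66 with EGF, 3.12 ± 1.11 with gefitinib and 2.52 ± 0.83 with both, and it was positive at all 26 time points except with EGF, where it was positive at 25. None of the 3 windows before AADAT start sites held the AP-1 letters TGANTCA or the TCF letters CTTTGA on either strand, which occur in 6.57% and 11.2% of all windows. Most windows thus lack these letters, as did those of SLCO1B3, SLCO1B1 and SYNPO2L, and control by AP-1 or TCF was not tested.

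SUSD2 was lower in PC9M2 cells and, unlike the following genes, was well above background on all 104 arrays of each line. In PC9 cells its log2 signal was 13.24 to 14.31 without treatment (median 13.72), 12.44 to 14.30 with EGF (median 13.40), 13.56 to 14.48 with gefitinib (median 14.14) and 13.68 to 15.27 with both (median 14.13). In PC9M2 cells it was 8.88 to 10.05 (median 9.21), 8.57 to 9.33 (median 9.10), 8.63 to 9.36 (median 9.04) and 8.63 to 9.34 (median 9.01). The lines did not overlap. The difference, PC9M2 minus PC9, was -4.47 ± 0.41 without treatment, -4.31 ± 0.47 with EGF, -5.01 ± 0.29 with gefitinib and -5.21 ± 0.32 with both.

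SYNPO2L was well above background on 103 of 104 PC9 arrays and on 7 of 104 PC9M2 arrays. The PC9 log2 signal was 6.42 to 8.68 without treatment (median 8.03), 6.44 to 9.40 with EGF (median 7.97), 7.67 to 9.56 with gefitinib (median 8.96) and 7.95 to 9.57 with both (median 8.55). The PC9M2 signal was 2.21 to 4.95 (median 2.86), 2.21 to 4.21 (median 3.15), 2.41 to 4.52 (median 3.39) and 2.22 to 4.29 (median 3.25), with 2, 1, 3 and 1 of 26 arrays measured. No PC9M2 array reached the lowest PC9 array. The signals differed by -4.68 ± 0.93 without treatment, -4.85 ± 0.75 with EGF, -5.47 ± 0.80 with gefitinib and -5.51 ± 0.82 with both, against PC9M2 signals mostly not well above background. Against the lowest signal well above background on each PC9M2 array, or the gene's own where higher, SYNPO2L was higher in PC9 cells by 3.37, 3.60, 4.65 and 4.49 on the log2 scale in the same order. That lowest signal was taken over all probes and is not the limit of this probe, so these values are no firm bounds. SYNPO2L is known from striated muscle, and the 250 bases before its RefSeq start, at chr10:73656030-73656279 on the minus strand of GRCh38.p14, are shown because they hold 1 match to the MEF2 recognition sequence, in capitals, beginning 164 bases before the start.
SYNPO2L: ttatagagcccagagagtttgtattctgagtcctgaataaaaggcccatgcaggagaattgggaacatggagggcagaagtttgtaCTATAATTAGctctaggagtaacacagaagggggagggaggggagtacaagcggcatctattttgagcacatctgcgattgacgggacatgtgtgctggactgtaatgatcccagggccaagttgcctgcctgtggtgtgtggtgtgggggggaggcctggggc
On either strand such a match was found in 0.515% of all windows. The SYNPO2L window was shown because it held a match, so this share is a description and no finding. A role of the match was not tested.

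KCNS1 was well above background on all 104 PC9 arrays and on 1 of 104 PC9M2 arrays. In PC9 cells its log2 signal was 6.50 to 8.05 without treatment (median 7.12), 6.42 to 7.62 with EGF (median 6.96), 6.46 to 8.10 with gefitinib (median 7.09) and 6.31 to 7.54 with both (median 7.04). In PC9M2 cells it was 1.83 to 4.27 (median 1.91), 1.85 to 3.77 (median 1.90), 1.83 to 2.77 (median 1.90) and 1.82 to 3.18 (median 1.90), below every PC9 array. Without treatment the signals differed by -4.75 ± 0.96, with 1 of 26 PC9M2 arrays well above background. In the other 3 PC9M2 courses no array was, so no level was measured there. Against the lowest signal well above background on each PC9M2 array, KCNS1 was 6.42-fold higher in PC9 cells with EGF, 7.71-fold with gefitinib and 6.97-fold with both. That limit was the lowest over all probes and not the limit of this probe, so these values are no firm bounds. With normexp background correction the differences were -0.69, -0.77 and -0.73 on the log2 scale in the same order.

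**Figure D1:**
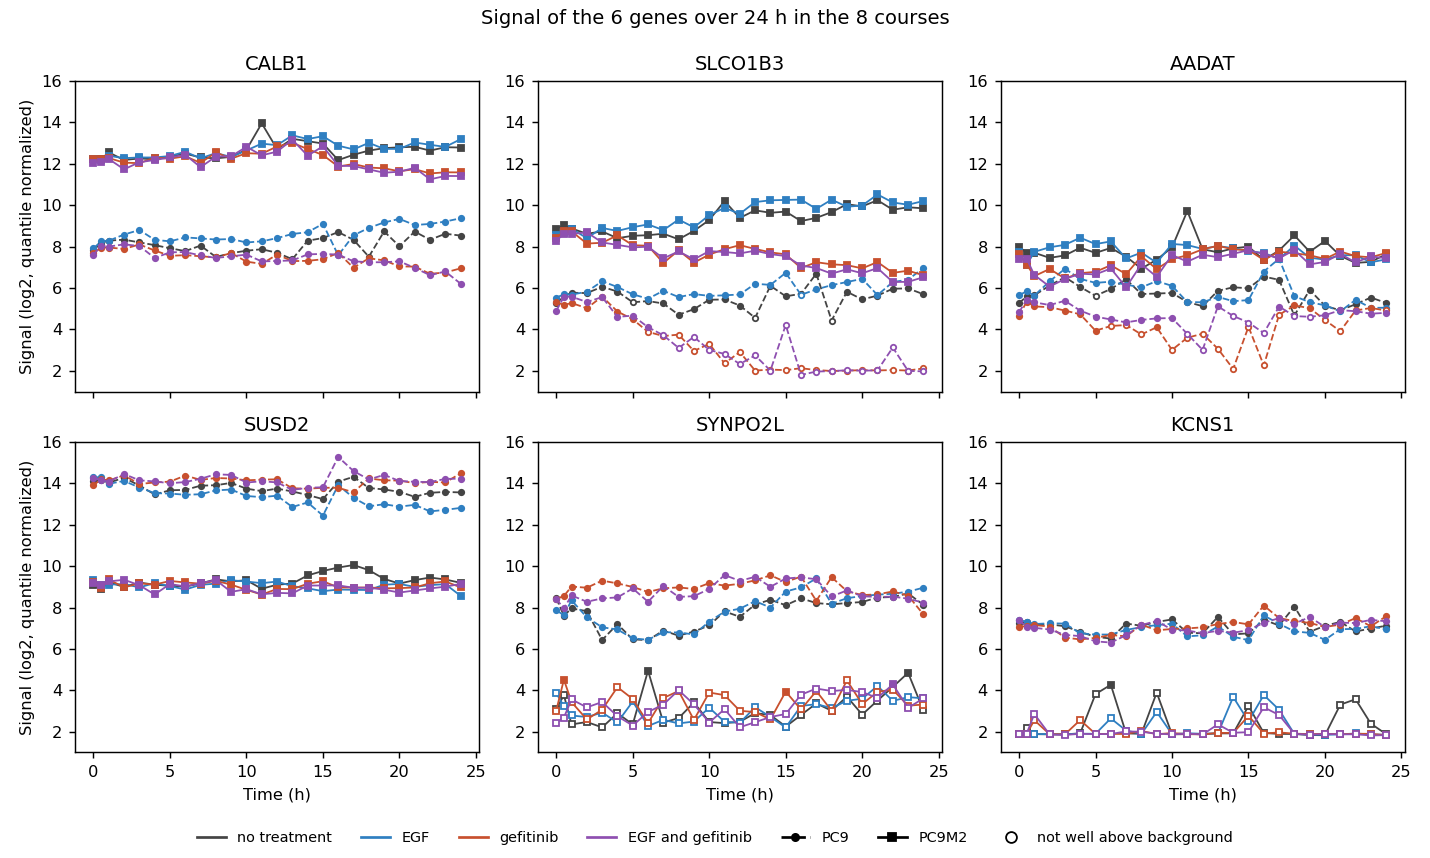
Quantile-normalised log2 signal (vertical axis) of the 6 genes against time in hours (horizontal axis), with 1 array per point, PC9 as circles on dashed lines, PC9M2 as squares on solid lines, treatments in colour and open symbols for arrays not well above background. The lines are separate at every array for CALB1, SUSD2, SYNPO2L and KCNS1, while SLCO1B3 in gefitinib-treated PC9 cells falls as low as 2.00 and is mostly drawn with open symbols.

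Over all genes tested, the median size of the line difference averaged over the 4 treatments was 0.42 on the log2 scale, and 325 genes reached 2. The means were 4.50 for CALB1, 3.99 for SLCO1B3 and 2.41 for AADAT, and -5.13 for SYNPO2L, -4.91 for KCNS1 and -4.75 for SUSD2. Those of SYNPO2L and KCNS1 were taken against signals mostly not well above background, so the order of these 3 is not established. The 4 genes whose arrays did not overlap between the lines, CALB1, SUSD2, SYNPO2L and KCNS1, compare with 0.747% of all tested genes, which chose them and is no finding. The size of the dim side depended on the background handling. With normexp correction, which adds 50 to every signal, the untreated difference was 3.76 for CALB1, 1.69 for SLCO1B3, 0.74 for AADAT, -3.94 for SUSD2, -0.83 for SYNPO2L and -0.75 for KCNS1, in the same directions.

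**Figure D2:**
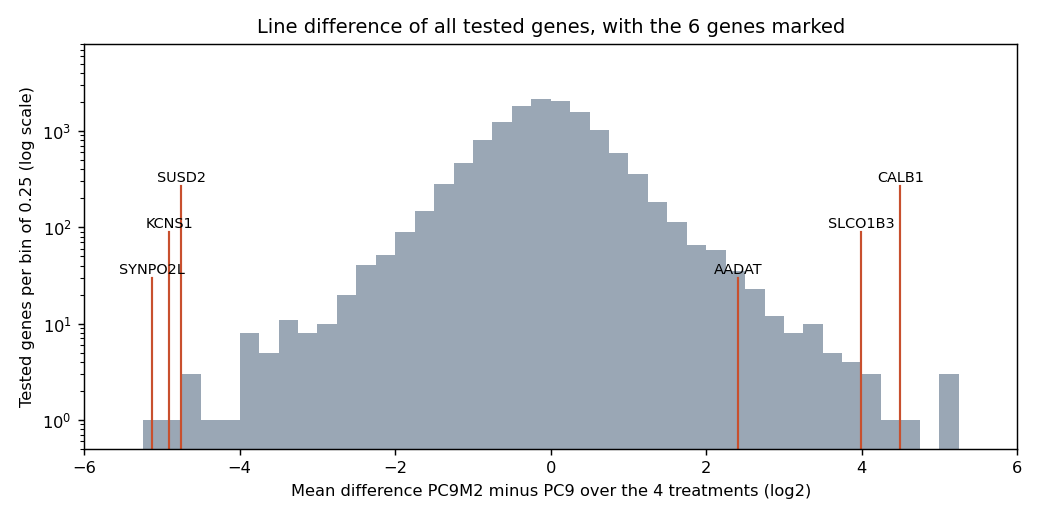
Number of tested genes per bin of 0.25 (vertical axis, log scale) by mean log2 difference PC9M2 minus PC9 over the 4 treatments (horizontal axis), with red lines at the 6 genes. SYNPO2L at -5.13, KCNS1 at -4.91 and SUSD2 at -4.75 lie at the left end, the first 2 against PC9M2 signals mostly not well above background, and AADAT at 2.41 lies inside the right shoulder.

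All 3 genes that were higher in PC9M2 cells had lower signals with gefitinib in both lines. Without EGF, limma called 5 of the 6 genes in PC9 cells (background 72.2% of genes) and 5 in PC9M2 cells (66.5%), so most genes on the array passed this test. CALB1, SLCO1B3 and AADAT were lower with gefitinib in both lines, with and without EGF, as were 26.5% of all genes. SLCO1B3 changed most, by -2.33 on the log2 scale in PC9 cells (95% interval -2.87 to -1.79, adjusted p = 8.18e-09, limma, n = 26, lower at 25 time points) and by -1.64 in PC9M2 cells (-2.05 to -1.22, adjusted p = 4.51e-08, lower at 25). With EGF present the changes were -2.63 (-3.21 to -2.06) and -2.01 (-2.50 to -1.52). In PC9 cells the signal was at the background for much of the treated course, so its fall there is a measured difference from values that mostly have no measured level.

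AADAT fell by 1.47 in PC9 cells (95% interval -1.90 to -1.05, adjusted p = 3.33e-07) and by 0.43 in PC9M2 cells (-0.67 to -0.19, adjusted p = 0.00200), and with EGF by 1.17 and 0.57. CALB1 fell by 0.68 in PC9 cells (-0.91 to -0.44, adjusted p = 7.46e-06) and by 0.45 in PC9M2 cells (-0.65 to -0.26, adjusted p = 0.000143), and with EGF by 1.16 and 0.60. CALB1 was lower at 25 of 26 time points in PC9 cells and at 22 in PC9M2 cells, and AADAT at 25 and 20. The AADAT sign was not steady in PC9M2 cells, where 4 of 7 time points at 18 to 24 h were higher with gefitinib. With the variance widened for the likeness of neighbouring time points, the calls in PC9M2 cells with EGF were lost for CALB1 (adjusted p = 0.0587), SLCO1B3 (adjusted p = 0.0779) and AADAT (adjusted p = 0.115). The CALB1 call in PC9 cells without EGF was lost with time points 3 h apart (adjusted p = 0.0529).

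The genes that were lower in PC9M2 cells did not move together. SYNPO2L rose with gefitinib in PC9 cells by 1.18 (95% interval 0.84 to 1.53, adjusted p = 4.83e-07, higher at 23 of 26 time points), and by 0.85 with EGF (0.52 to 1.18, adjusted p = 2.46e-05), a call lost with the widened variance (adjusted p = 0.162). In PC9M2 cells its difference of 0.40 missed the threshold (0.03 to 0.76, adjusted p = 0.0508) on a course with 3 of 26 arrays measured. It was called with 75th percentile scaling (0.55, adjusted p = 0.0203), the mean of all probes (adjusted p = 0.0488) and a filter of 26 arrays (adjusted p = 0.0469), and was -0.030 with a floor of 16. With EGF the 75th percentile scaling called it too (0.43, adjusted p = 0.0141). SUSD2 was higher with gefitinib in PC9 cells by 0.31 (0.16 to 0.46, adjusted p = 0.000383) and with EGF by 0.83 (0.64 to 1.02, adjusted p = 4.24e-09). In PC9M2 cells SUSD2 was lower with gefitinib by 0.24 (-0.38 to -0.10, adjusted p = 0.00309), a call lost with the widened variance (adjusted p = 0.368). Its difference there with EGF was -0.07 (-0.19 to 0.05, adjusted p = 0.295).

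KCNS1 gave no call in PC9 cells, where the gefitinib difference was 0.01 (95% interval -0.15 to 0.18, adjusted p = 0.914) and 0.06 with EGF (-0.09 to 0.20, adjusted p = 0.464). With 75th percentile scaling the latter was 0.22 and was called (adjusted p = 0.00868). The call in PC9M2 cells, -0.35 (adjusted p = 0.0472), rests on courses that measured the gene on 1 and 0 of 26 arrays, and 10 of 15 alternative settings lost it, leaving out 0.5 h among them (adjusted p = 0.0545). With EGF, 5 of the 6 genes were called in PC9 cells (background 78.9%) and 3 in PC9M2 cells (74.4%).

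**Figure D3:**
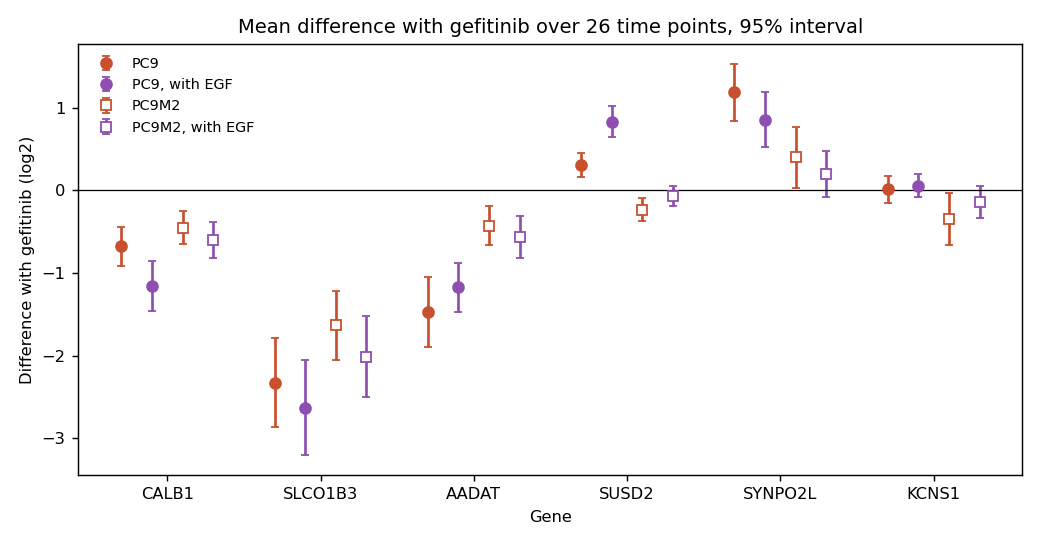
Mean log2 difference between gefitinib-treated and matched untreated arrays (vertical axis) for the 6 genes (horizontal axis), in PC9 (filled circles) and PC9M2 (open squares), without (red) and with EGF (purple). Bars are 95% intervals over 26 time points. SLCO1B3 is lowest in all 4 comparisons (-2.63 to -1.64), and SUSD2 and SYNPO2L lie above 0 in PC9 cells.

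The gefitinib effect was also compared between the lines. This comparison equals the line difference with gefitinib minus that without it. The 6 genes were chosen by line differences, so its p-values are not independent of that choice and serve as a description. The interaction, the effect in PC9M2 minus that in PC9, was called without EGF for AADAT (1.04, 95% interval 0.54 to 1.55, adjusted p = 0.00149), SUSD2 (-0.54, -0.72 to -0.37, adjusted p = 9.56e-06) and SYNPO2L (-0.79, -1.24 to -0.33, adjusted p = 0.00675) against a background of 34.1%. For CALB1 (0.22) and SLCO1B3 (0.69) it is given without a test, because it had been used when these genes were listed. With EGF it was called for 5 of the 6 genes (background 48.6%), namely CALB1 (0.56, adjusted p = 1.23e-05), SLCO1B3 (0.62, adjusted p = 2.39e-05), AADAT (0.60, adjusted p = 0.00235), SUSD2 (-0.90, adjusted p = 7.04e-08) and SYNPO2L (-0.66, adjusted p = 0.00837). KCNS1 was not called in either (-0.36, 95% interval -0.72 to 0.01, and -0.20, -0.44 to 0.05). For SUSD2 the gefitinib differences of the lines had opposite signs without EGF.

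CALB1 and SUSD2 were measured on every array of these comparisons, and the other genes were not. SYNPO2L was well above background on 1 to 3 of 26 arrays in each PC9M2 course. Its calls therefore cannot show that the gefitinib effect differs between the lines. For SLCO1B3 the interaction with EGF turned to -0.97 (adjusted p = 4.55e-07) with normexp correction and to -0.37 (adjusted p = 0.0264) with a floor of 16, so its direction depends on how signals near background are treated. For CALB1 it was 0.053 (adjusted p = 0.522) and for AADAT -0.052 (adjusted p = 0.455) with normexp. Without EGF the AADAT interaction was likewise lost with normexp (adjusted p = 0.999), and with time points 3 h apart the calls for AADAT (adjusted p = 0.130) and SYNPO2L (adjusted p = 0.180) were lost. With EGF the SLCO1B3 call was lost without the pairing by time point (adjusted p = 0.192) and with time points 3 h apart (adjusted p = 0.0652), that of SYNPO2L with the latter (adjusted p = 0.111) and the widened variance (adjusted p = 0.121), and that of AADAT with the widened variance (adjusted p = 0.0967). SUSD2 kept its call and sign under all 15 alternatives, with and without EGF.

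The gefitinib effects changed over the course. The mean SLCO1B3 difference in PC9 cells was -0.41 ± 0.29 (SD, n = 5 time points) at 0 to 3 h, -1.42 ± 0.53 (n = 7) at 4 to 10 h, -3.39 ± 0.84 at 11 to 17 h and -3.54 ± 0.52 at 18 to 24 h. From 6 h on the gefitinib-treated PC9 arrays were not well above background for SLCO1B3, so the depth of the later differences was not measured. In PC9M2 cells the SLCO1B3 difference was -0.38 ± 0.16, -0.85 ± 0.68, -1.99 ± 0.34 and -2.97 ± 0.22. This fall deepened in each later part and was measured on every array. The CALB1 difference was smaller, with -0.25 ± 0.14, -0.27 ± 0.21, -0.75 ± 0.49 and -1.32 ± 0.62 in PC9 cells. In PC9M2 cells the CALB1 difference was -0.12 ± 0.13, -0.053 ± 0.18, -0.46 ± 0.49 and -1.08 ± 0.14, so it grew from 11 h on only.

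AADAT and SYNPO2L instead differed most in the middle of the course in PC9 cells. AADAT was lower by -0.81 ± 0.53 at 0 to 3 h, -1.90 ± 0.46 at 4 to 10 h and -2.52 ± 1.18 at 11 to 17 h, and by only -0.47 ± 0.49 at 18 to 24 h. The gefitinib-treated PC9 arrays at 11 to 17 h were not well above background for AADAT, with signals down to 2.10 at 14 h. The depth of the AADAT difference there was therefore not measured. In PC9M2 cells the AADAT difference was -0.74 ± 0.35, -0.61 ± 0.59, -0.30 ± 0.82 and -0.16 ± 0.51. The SYNPO2L difference in PC9 cells was 2.19 ± 0.21 at 4 to 10 h, with all 7 time points higher, and 0.30 ± 0.56 at 18 to 24 h. The untreated SYNPO2L course itself dipped to 6.42 at 6 h and returned to 8.68 at 23 h, while the gefitinib course stayed between 7.67 and 9.56.

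The SUSD2 difference with EGF present widened through the PC9 course, from 0.13 ± 0.21 at 0 to 3 h to 0.65 ± 0.10, 1.00 ± 0.33 and 1.34 ± 0.13 in the later parts. Without EGF it was 0.02 ± 0.13, 0.42 ± 0.17, 0.14 ± 0.49 and 0.57 ± 0.17. In PC9M2 cells it was 0.06 ± 0.09, -0.04 ± 0.23, -0.53 ± 0.35 and -0.35 ± 0.24 without EGF, so the difference lay from 11 h on. The PC9 course with EGF alone had its highest SUSD2 signal, 14.30, at 0.5 h and its lowest, 12.44, at 15 h. The PC9 course with both agents stayed between 13.68 and 15.27. At 0 h, arrays with and without gefitinib already differed for several genes. AADAT was at -0.63 in PC9 cells and at -0.84 there with EGF. In PC9M2 cells AADAT was at -0.37 without EGF and at -0.33 with EGF, beside mean differences of -0.43 and -0.57 over the whole course. SLCO1B3 was at -0.64 in PC9 cells with EGF and at -0.43 in PC9M2 cells without. SYNPO2L was at 0.54 in PC9 cells with EGF and at -1.44 in PC9M2 cells with EGF.

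**Figure D4:**
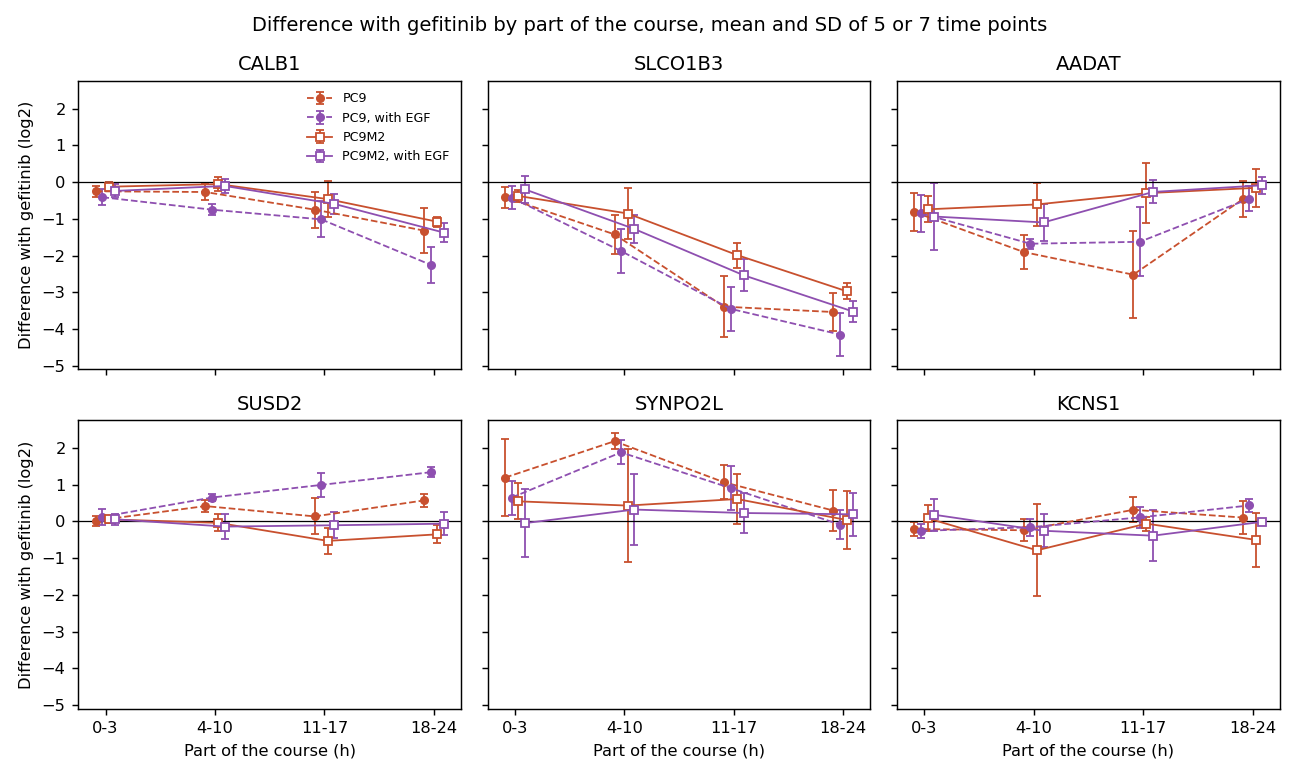
Mean log2 difference with gefitinib (vertical axis) in 4 parts of the course in hours (horizontal axis), for PC9 (filled circles, dashed) and PC9M2 (open squares, solid), without (red) and with EGF (purple). Bars are SD of 5 time points (0 to 3 h) or 7 (later parts). SLCO1B3 in PC9M2 falls further in each later part, with and without EGF, while its treated PC9 arrays were not well above background in the last parts drawn. CALB1 in PC9M2 lies nearer 0 at 4 to 10 h than at 0 to 3 h before it falls, and SYNPO2L in PC9 peaks at 4 to 10 h.

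The time courses were also tested each on its own with a spline. CALB1 changed over time in all 8 courses, SLCO1B3 in 7, SYNPO2L in 6, AADAT in 5, and SUSD2 and KCNS1 in 2 each. Of all genes 66.5%, 78.8%, 77.8% and 83.1% did so in PC9 cells without treatment, with EGF, with gefitinib and with both, and 67.5%, 74.9%, 63.7% and 67.6% in PC9M2 cells. The SYNPO2L calls in PC9M2 cells with EGF and with both rest on courses with 1 of 26 arrays measured each, and were lost with normexp (adjusted p = 0.240 and 0.167), with a floor of 16 (adjusted p = 0.936 and 0.792) and with scan day as a random block (adjusted p = 0.0859 and 0.0717). In PC9 cells the SLCO1B3 call with EGF was lost with 75th percentile scaling (adjusted p = 0.0590), normexp (adjusted p = 0.0660) and scan day (adjusted p = 0.121). The AADAT call in PC9 cells was lost with scan day with EGF (adjusted p = 0.0599) and with both (adjusted p = 0.179), the latter also with normexp (adjusted p = 0.0825). With scan day as a random block CALB1 lost the call in the untreated courses of PC9 (adjusted p = 0.0779) and PC9M2 (adjusted p = 0.179). The widest fitted range among these was that of SLCO1B3 in PC9 cells with EGF and gefitinib, 3.39 on the log2 scale (adjusted p = 7.92e-09), and with gefitinib alone it was also 3.39 (adjusted p = 4.82e-15). These courses had 8 and 7 of 26 arrays well above background for SLCO1B3, so the size of both ranges was not measured. In untreated PC9M2 cells SLCO1B3 moved the other way, with a fitted range of 1.61, a trough at 5 h and a peak at 24 h (adjusted p = 1.01e-06). KCNS1 was called in both PC9 courses with gefitinib, by 0.78 alone (adjusted p = 0.000507) and 0.76 with EGF (adjusted p = 0.00274). SUSD2 was called in PC9 cells with EGF alone (1.54, peak at 0 h, trough at 24 h, adjusted p = 9.43e-06). Its other call was in untreated PC9M2 cells (0.67, trough at 0 h, peak at 18 h, adjusted p = 0.00249). In PC9 cells SUSD2 was not called with both agents (adjusted p = 0.717) or with gefitinib (adjusted p = 0.0508), the latter being called under 4 of 8 alternatives.

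EGF alone moved fewer genes. In PC9 cells 3 of the 6 genes were called (background 25.6%), CALB1 with 0.49 (95% interval 0.30 to 0.68, adjusted p = 0.000221), SLCO1B3 with 0.45 (0.24 to 0.66, adjusted p = 0.00184) and SUSD2 with -0.41 (-0.54 to -0.27, adjusted p = 3.36e-05). With time points 3 h apart the calls for SLCO1B3 (adjusted p = 0.0530) and SUSD2 (adjusted p = 0.0623) were lost. This comparison shares its untreated arrays with that of gefitinib. In PC9M2 cells 2 were called (9.07%), SLCO1B3 with 0.25 (0.11 to 0.40, adjusted p = 0.0161) and SUSD2 with -0.25 (-0.41 to -0.09, adjusted p = 0.0457), and both calls were lost with the widened variance (adjusted p = 0.168 and 0.576) and without the pairing by time point (adjusted p = 1.000 and 0.109), that of SUSD2 also without 16 h (adjusted p = 0.0785). Without 11 h CALB1 was called too (0.13, adjusted p = 0.0288). The difference in EGF effect between the lines was not tested.

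Relatives of the 6 genes did not share their line difference as groups. Of 9 tested EF-hand calcium-binding relatives of CALB1, 2 were higher in PC9M2 cells under all 4 treatments (background 22%) and 2 lower (25.9%), CALML5, a calmodulin-like skin protein, having the largest mean difference at -2.54. Of 5 tested organic anion transporters 2 were higher and 0 lower, namely SLCO1B1 (1.49) and SLCO1A2 (1.06), which were well above background on 16 and 27 of 104 PC9 arrays and on 47 and 48 PC9M2 arrays. These lie beside SLCO1B3 and resemble it in sequence, so signal shared between their probes was not tested. Unlike SLCO1B3, SLCO1B1 was higher with gefitinib in PC9 cells (1.05, adjusted p = 0.000308, limma). Most PC9 arrays were not well above background for SLCO1B1, nor were most gefitinib-treated PC9 arrays for SLCO1B3 (7 of 26 were). Opposite responses were therefore not shown at measured levels.

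In the kynurenine and lysine pathways of AADAT, 2 of 12 tested genes were higher and 3 lower. The lower ones were QPRT, which makes nicotinate mononucleotide from quinolinate (-1.59), AASS, the first enzyme of lysine breakdown (-1.41), and DHTKD1, a later mitochondrial step (-0.88), and the higher ones were GOT2 (0.65), which can also form kynurenic acid, and AFMID (0.46). Among 6 tested sushi domain genes 1 was higher (CSMD1, 1.82) and 2 lower (SUSD4, -1.02, and SUSD1, -0.45). Among 13 synaptopodin and Z-disc genes 1 was higher (LDB3, 1.51) and 3 lower (SYNPO, -1.39, FLNC, -1.13, and PDLIM5, -1.11). Of 9 potassium channel subunits KCNF1 was higher (1.52) and KCNV1 lower (-1.23). The list medians ran from -0.24 to 0.46, beside -0.06 over all tested genes.

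Markers of the tissues in which some of these genes are known were mostly dim, and none was higher in PC9M2 cells under all 4 treatments. Of 8 tested striated muscle markers 0 were higher and 2 lower (TNNT2, -1.76, and MB, -0.60), and of 4 tested neuronal markers all 4 were lower, with SYT1 (-1.67) and TUBB3 (-1.11) first. Neither of 2 tested hepatocyte markers was called in the same direction under all 4 treatments. The summed striated muscle signal was 2140 to 9509 in PC9 and 1626 to 4303 in PC9M2, and the neuronal sum was 3583 to 19853 and 1961 to 8510.

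Genes beside the 6 were examined in genome order, taking the 3 nearest measured genes on each side. Of these 36 neighbours 7 were higher in PC9M2 cells under all 4 treatments and 13 lower, beside a background of 22% and 25.9% of all tested genes. GGT5, a glutathione-cleaving enzyme of the gamma-glutamyltransferase family and the next measured gene after SUSD2 on chromosome 22, differed by -4.65, ranging from -5.05 to -3.94 over the treatments, and was well above background on 104 PC9 arrays and 3 PC9M2 arrays. CABIN1, on the other side of SUSD2, was not called under any treatment (0.01, adjusted p = 0.944, without treatment). SPECC1L beyond GGT5 differed by 0.21 and ADORA2A, an adenosine receptor, by -1.49.

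Beside KCNS1 on chromosome 20, WFDC5 (-2.56), WFDC12 (-2.64) and PI3 (-2.20), a run of protease inhibitor genes, were all lower in PC9M2 cells. On the other side STK4 (-0.86) and TOMM34 (-1.45) were lower too. WFDC12 was well above background on 68 PC9 and 7 PC9M2 arrays. With gefitinib WFDC5 fell by 2.09 (adjusted p = 3.39e-07) and WFDC12 by 2.72 (adjusted p = 8.56e-09) in PC9 cells, where KCNS1 gave no call without EGF. Around SYNPO2L, CALB1 and AADAT no neighbour differed by 1 or more on the log2 scale in the mean over the 4 treatments. Under single treatments TMEM64 beside CALB1 reached 1.15 with gefitinib and DECR1 1.07 with EGF. Beside AADAT, SAP30 reached -1.02 without treatment and GALNT7 1.01 with both, and MYOZ1 beside SYNPO2L reached -1.02 with EGF. The largest means were those of SAP30 (-0.91) beside AADAT, DECR1 (0.88) beside CALB1 and MYOZ1 (-0.56) beside SYNPO2L.

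**Figure D5:**
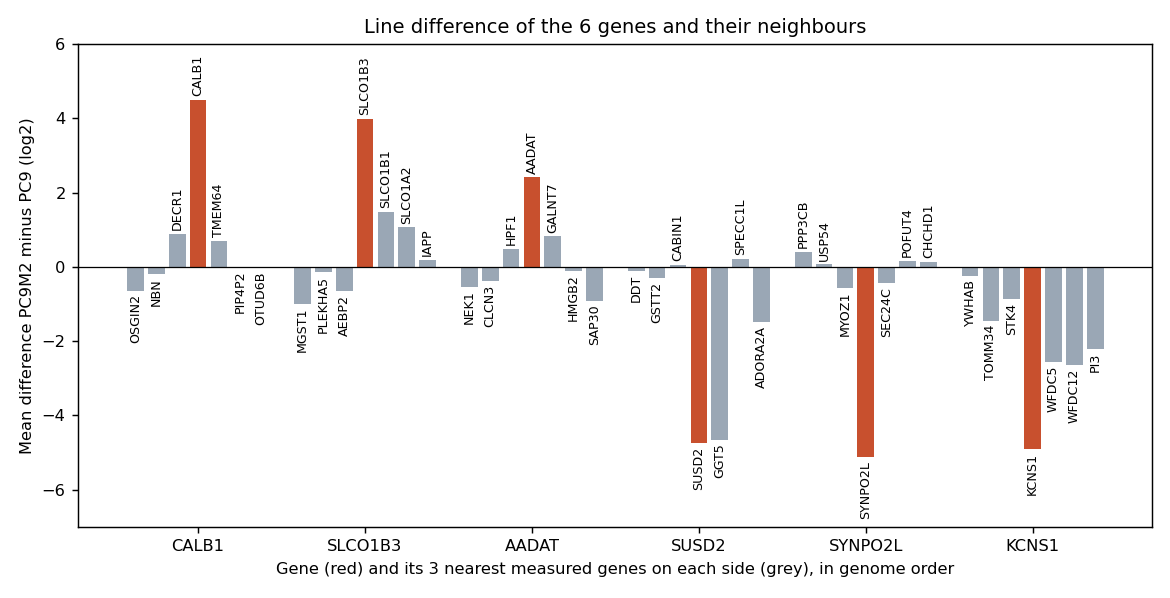
Mean log2 difference PC9M2 minus PC9 over the 4 treatments (vertical axis) of the 6 genes (red) and their 3 nearest measured genes on each side in genome order (grey, horizontal axis). GGT5, well above background on 3 PC9M2 arrays, lies at -4.65 beside SUSD2 at -4.75, and all 6 neighbours of KCNS1 lie below 0.

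The 6 genes were chosen for large line differences, so genes with a high correlation over all arrays mostly share these, which is no finding. These correlations are descriptive, since the arrays share lines, slides and courses, and SYNPO2L and KCNS1 were mostly not well above background in PC9M2 cells. SUSD2 was most like KCNS1 (r = 0.977), GGT5 (r = 0.970) and BST2 (r = 0.965), and SYNPO2L was most like SUSD2 (r = 0.955). CALB1 was most like PNPLA4 (r = 0.973), whose own line difference was 4.68, SLCO1B3 was most like GALNT1 (r = 0.949) and AADAT most like NMT2 (r = 0.937). With the mean of each course removed, only changes within courses remained. CALB1 then went with HDGFL3 (r = 0.823) and SLCO1B3 with IPO5 (r = 0.868), whose line differences were 0.10 and 0.57, while KCNS1 reached no more than r = 0.421 (CERCAM). Between the 6 genes CALB1 and SLCO1B3 stayed related (r = 0.664), and the other 14 pairs lay between -0.274 and 0.147.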

How the data were processed

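Processed files of 208 one-colour Agilent arrays were used. The authors scanned the arrays and extracted intensities with Feature Extraction, which subtracts background. The header of the first array gives version 10.5.1.1, while the paper names an earlier version. The deposited table holds the authors' quantile-normalised intensity values on a linear scale, which were recovered from the scanner values to within 0.00201 on the log2 scale. Every column of it had a median of 125.017.

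The processed signals were quantile normalised over all arrays, given a floor of 1 and logged to base 2 (log2). Outlier spots (0.0793% of tested values) were removed. Accessions of 24794 of 41000 probes were matched to symbols through the RefSeq table of GRCh38.p14, and the most variable probe stood for a gene. Of 16961 genes, 3700 not well above background on 13 of 26 arrays of any course were left out. The names on 1 slide came from a later design version, and those of the first array were used.

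Matched time points were compared as pairs with limma 3.58.1 (R 4.3.3, statmod 1.5.0), two-sided, with Benjamini-Hochberg adjustment over 13261 genes at 0.05. Treatments of 1 line and time point share a slide, which gives the pairing, and their deviations from the course means correlated with a median r of 0.290 to 0.727 over the 6 treatment comparisons. Time courses were tested with a natural spline of 4 degrees of freedom. For a dim course with no array well above background, the other line was also set against the lowest signal well above background on each dim array, over all probes. The 6 genes and the gene lists were chosen with earlier results of these data known. Genes were named by these rules: the 6 genes, up to 5 relatives per list with the largest mean line difference called in 1 direction under all 4 treatments, 3 measured neighbours per side, and the 3 most correlated genes. The alternatives were 75th percentile scaling, normexp with an offset of 50 on median signals (mean signals were not used here), the deposited table, the mean of all probes, no filter, a filter of 26 arrays, a floor of 16, courses compared unpaired, a spacing of 3 h, widened variance for autocorrelation, scan day as a random block and the methods' t-test. Leaving out 0.5, 11 or 16 h was chosen after seeing the data. The scripts were tested on simulated data. With 1 array per time point, the number of arrays limits the precision.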

Additional observations from a re-analysis of the deposited data

Results flagged for a closer look

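The interaction test called 8 of the values above, each over 26 time points. It compares line differences, by which the genes were chosen, so its p-values are not independent of that choice. Without EGF the effect in PC9M2 minus that in PC9 was 1.04 for AADAT (adjusted p = 0.00149, limma), -0.54 for SUSD2 (adjusted p = 9.56e-06) and -0.79 for SYNPO2L (adjusted p = 0.00675). With EGF it was 0.56 for CALB1 (adjusted p = 1.23e-05), 0.62 for SLCO1B3 (adjusted p = 2.39e-05), 0.60 for AADAT (adjusted p = 0.00235), -0.90 for SUSD2 (adjusted p = 7.04e-08) and -0.66 for SYNPO2L (adjusted p = 0.00837). SUSD2 was measured on every array and was called with the same sign under all alternatives tried. SLCO1B3, AADAT and SYNPO2L had courses that were mostly not well above background in 1 line. For SYNPO2L this held for every PC9M2 course, so its calls cannot show that the effect differs between the lines.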

How the results depend on the processing

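The 6 genes kept the direction of their line difference under every alternative, although normexp moved all 24 of these differences and a floor of 16 moved 8. With normexp the gefitinib interaction without EGF turned to -0.12 for CALB1 and -0.80 for SLCO1B3, and with EGF to -0.97 for SLCO1B3 and -0.052 for AADAT, leaving 3 of the 6 genes called. With a floor of 16 the SLCO1B3 interaction was -0.41 without and -0.37 with EGF, and the SYNPO2L effect in PC9M2 was -0.030. The KCNS1 effect in PC9, 0.01 and not called, was -0.0089 with normexp, -0.066 with time points 3 h apart and -0.016 without 16 h. With 75th percentile scaling the uncalled effects with EGF in PC9M2 were 0.0072 for SUSD2 and 0.034 for KCNS1, and 5 instead of 3 of the 6 changed over time in PC9M2 with EGF. The uncalled EGF effects in PC9M2 were 0.021 for SYNPO2L without 0.5 h and 0.025 for AADAT without 11 h.

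Without the pairing by time point (no replicate block), EGF effects were called for 401 instead of 3398 genes in PC9 and 89 instead of 1203 in PC9M2, where 0 instead of 2 of the 6 remained past the threshold, and interactions for 2016 instead of 4523 genes without and 2367 instead of 6441 with EGF. With time points 3 h apart the line differences were called for 5877 (9036), 5752 (9260) and 5706 (8981) genes without treatment, with EGF and with both, the EGF effects for 543 and 14, and the interactions for 1043 and 2508. Of the 6 genes this setting called 3 for gefitinib in PC9M2, 1 and 0 for EGF in PC9 and PC9M2, and 1 and 3 for the interactions without and with EGF. The widened variance called 5848 genes for the line difference with both agents, 522 for EGF in PC9M2 and 2864 for the interaction without EGF. Of the 6 it called 3 for gefitinib in PC9M2, 0 with EGF in PC9M2, 0 for EGF in PC9M2 and 3 for the interaction with EGF. Normexp, no filter, scan day, the methods' t-test and leaving out 16 h each called 1 of the 6 for EGF in PC9M2. With scan day as a random block, changes over time were called for 6799 (11020) genes in PC9 with both agents, and in PC9M2 for 6369 (9933) with EGF, 4555 (8970) with both, 3576 (8447) with gefitinib and 5167 (8946) without treatment, and for 3 instead of 5 of the 6 in PC9 with EGF and 1 instead of 2 in untreated PC9. The cause was not tested. The methods' one-sided t-test called 3917 to 4200 genes higher in PC9M2 over the 4 treatments after Benjamini-Hochberg at 0.05, and 4421 to 4626 had an unadjusted p under 0.05.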
